A study of Mus musculus with 42 samples.

Results

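The Bcl2 family decides whether a T cell keeps its mitochondria intact or dies, and its transcripts were followed here in CD4+ T cells after their receptor was stimulated. The 10 genes are Bcl2, Bcl2l1 and Mcl1, which protect, Bcl2l11, Bid, Bbc3, Pmaip1 and Bmf, which promote death through a BH3 domain, and the effectors Bak1 and Bax. They were chosen by name, and each was read from the transcript cluster that the platform's gene table assigns to its symbol. Of the 10 genes 9 had such a cluster, 1 each (10357043 for Bcl2, 10488655 for Bcl2l1, 10494306 for Mcl1, 10475866 for Bcl2l11, 10547531 for Bid, 10550290 for Bbc3, 10456357 for Pmaip1, 10486112 for Bmf and 10449303 for Bak1), among 19752 distinct symbols. Bax was not analysed here, since no cluster carried its symbol alone. All 9 passed the filter on dim genes, which left 12425 genes tested.

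All mice were NOD, a strain prone to autoimmune diabetes, and carried Foxp3-IRES-GFP, a reporter by which spleen cells were sorted into regulatory (Treg) and conventional (Tconv) CD4+ T cells. The groups were Treg and Tconv 0, 2, 8, 24 and 72 h after KT3, an antibody that binds the CD3 chains of the T cell receptor. KT3 was either injected (in vivo, female mice of 8 weeks) or added at 1.25 µg/ml to splenocytes in culture (in vitro, where arrays numbered 1 came from female mice of 9 weeks and those numbered 2 from male mice of 14 weeks). Each of these 20 groups had 2 arrays, and rat IgG was injected for a single further array of each cell type, taken at 24 h, which gave 42 arrays.

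At the mitochondrion the protective members hold the effectors and the BH3-only members in check. BH3-only proteins such as Bim (the product of Bcl2l11), Puma (Bbc3) and Noxa (Pmaip1) bind the protective members and free or activate Bak and Bax, which then permeabilise the outer membrane, release cytochrome c and start the caspases. In T cells Bim removes stimulated cells when cytokine falls away, Bcl-xL (Bcl2l1) is induced by costimulation, Bcl-2 is sustained by interleukin-7, and Mcl-1 is needed for the survival of both naive T cells and Treg.

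Promoters are shown for those members that share a match to a binding motif of a factor active in T cells but did not change alike. They are the RefSeq sequences of GRCm38.p6, the C57BL/6J reference and not the NOD genome, from 250 bases before to 50 after an annotated start, 5′ to 3′ on the gene's strand. RefSeq gave 16 such windows for 9 of the 10 genes. The motifs searched on both strands were NF-kB (3 G, 2 free bases, 3 T, 2 C), AP-1 (TGANTCA), FOXO (GTAAACA), STAT5 (TTCNNNGAA), the Myc E-box (CACGTG) and NFAT (TGGAAA). These occur in 1.63%, 7.81%, 3.65%, 8.3%, 7.15% and 21.4% of all 32851 promoter windows in the table. Capitals mark the match, which is FOXO in the first pair (read on the opposite strand in Bbc3) and NF-kB in the second (on the opposite strand in both). The other matches were NF-kB and an E-box at other starts of Bbc3, E-boxes in Bax and NFAT in Bmf. The first 2 windows lie at chr2:128125788-128126087 (plus strand) and chr7:16310011-16310310 (plus strand), with matches that start at positions -227 and -167 from the start site.
Bcl2l11: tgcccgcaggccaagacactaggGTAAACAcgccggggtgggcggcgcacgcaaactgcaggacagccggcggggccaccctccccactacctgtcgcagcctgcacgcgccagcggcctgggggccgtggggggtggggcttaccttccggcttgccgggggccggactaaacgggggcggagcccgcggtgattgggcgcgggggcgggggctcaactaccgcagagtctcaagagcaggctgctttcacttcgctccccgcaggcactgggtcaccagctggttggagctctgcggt
Bbc3: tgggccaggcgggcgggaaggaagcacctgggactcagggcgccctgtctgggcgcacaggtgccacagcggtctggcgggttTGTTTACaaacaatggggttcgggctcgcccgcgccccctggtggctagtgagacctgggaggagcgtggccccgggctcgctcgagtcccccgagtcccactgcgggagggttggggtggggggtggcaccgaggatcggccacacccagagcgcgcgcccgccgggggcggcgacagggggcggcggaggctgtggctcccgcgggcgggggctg
The second pair lies at chr2:152830668-152830967 (minus strand) and chr3:95658471-95658770 (plus strand), with matches that start at -218 and -28.
Bcl2l1: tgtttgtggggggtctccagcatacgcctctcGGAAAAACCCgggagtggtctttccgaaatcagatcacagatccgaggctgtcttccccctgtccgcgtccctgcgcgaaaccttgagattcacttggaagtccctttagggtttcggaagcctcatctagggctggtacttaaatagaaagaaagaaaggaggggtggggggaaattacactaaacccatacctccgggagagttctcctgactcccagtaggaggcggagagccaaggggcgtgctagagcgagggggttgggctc
Mcl1: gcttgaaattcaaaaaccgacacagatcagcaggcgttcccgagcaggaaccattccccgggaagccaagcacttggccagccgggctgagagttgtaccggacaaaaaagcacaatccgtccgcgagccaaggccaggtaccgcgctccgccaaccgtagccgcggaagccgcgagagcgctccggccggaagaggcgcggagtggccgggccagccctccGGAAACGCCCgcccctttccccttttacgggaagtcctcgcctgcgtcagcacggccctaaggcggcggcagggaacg
Bcl2l11 and Bcl2l1 rose several-fold after KT3, whereas over time in the main fit Bbc3 was never called and Mcl1 in a single comparison. Bcl2l1, Bcl2l11 and Bbc3 have several annotated starts, and the windows shown are those with the shared match. A match of letters is a description of the reference and says nothing of whether a factor binds there.

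Foxp3, which defines Treg, lay between 11.30 and 12.34 on Treg arrays and between 7.02 and 8.20 on Tconv arrays (log2 intensity), including the in vitro Treg arrays, for which the labels give a gate without GFP. Markers of macrophages, B cells, platelets, neutrophils and CD8 T cells were higher on number 1 than on number 2 in all 10 in vivo groups. The mean over the macrophage markers, for example, was 6.15 to 7.57 on number 1 and 5.4 to 5.67 on number 2, and 10 of the 12 in vivo arrays numbered 2 were double sorted against 1 of the 10 numbered 1. In vitro, the Tconv 0 h array number 1 had the narrowest interquartile range (1.645 log2 units, against up to 3.208). Values without it, and in vivo with number 2 alone, are given below where they bear on a result. With number 2 alone each in vivo group holds 1 array, so the spread then comes from the in vitro arrays only. A call lost there cannot tell a changed level from lost replication. The samples were sorted populations, in which fewer cells with a transcript and less transcript per cell cannot be told apart.

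Levels are log2 intensities and differences are log2 fold changes with the standard error of the limma fit. A pair of levels gives array number 1 and then number 2, with n = 2 arrays in each group except IgG. Called means an adjusted p under 0.05 over all genes tested. The labels do not tie the in vivo arrays of a group to separate animals, so p-values speak only of the spread among these samples, and that spread may be technical.

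After injection of KT3, Tconv raised Bcl2l11, Bid and Bcl2l1 and lowered Bcl2, while Treg raised Bcl2l1 and Bid. All these calls of the main fit lay within the first 8 h. Not called in it were, among others, Bcl2 in Treg at 8 h (-0.96) and, in Tconv at 24 h, Bcl2l11 (0.76) and Bcl2 (-1.06). With array weights limma called each of these (adjusted p = 0.00939, 0.0168 and 0.0107), but not with the replicate block. Also uncalled in the main fit was Bcl2l1 in Tconv at 2 h (0.89). Limma called it with the replicate block (adjusted p = 0.0131) and with the in vivo arrays fitted alone (0.0119), but not with array weights. Bcl2l11 in Treg at 8 h (0.53) was called with the in vivo arrays fitted alone (0.0489), but not with the replicate block. In Treg in vivo 2 of the 9 genes were called at 2 h and 0 at 8, 24 and 72 h, where 6.45%, 9.67%, 0.483% and 0.0241% of all genes tested were called. Among Tconv in vivo 2 were called at 2 h, 4 at 8 h and 0 at 24 and 72 h, where 3.51%, 21%, 2.4% and 0.29% of all genes were. At any of the 4 times 2 of 9 were called in Treg, against 12% of all genes, and 4 of 9 in Tconv, against 23.1%. The median change of the 9 genes at 8 h was -0.15 in Treg and 0.21 in Tconv, and that of all genes -0.02 and -0.06.

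In the main fit more changes were called in culture than after injection, and some at 24 and 72 h. In Tconv this order was reversed with each setting fitted alone and with array weights. The narrow 0 h array entered every Tconv change in culture. Treg raised Bcl2l11, Pmaip1, Bcl2l1 and Bak1, and Tconv raised Bcl2l11, Bcl2l1, Bid, Bak1 and Mcl1 and lowered Bcl2. In Treg in vitro 2, 3, 1 and 1 of the 9 genes were called at 2, 8, 24 and 72 h, where 5.64%, 5.61%, 5.95% and 9.11% of all genes tested were called. In Tconv in vitro the counts were 2, 4, 3 and 2, where 26.3%, 18.9%, 26.8% and 7.55% of all genes were. At any of the 4 times 4 of 9 were called in Treg, against 17.3% of all genes, and 6 of 9 in Tconv, against 46.1%.

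**Figure D1:**
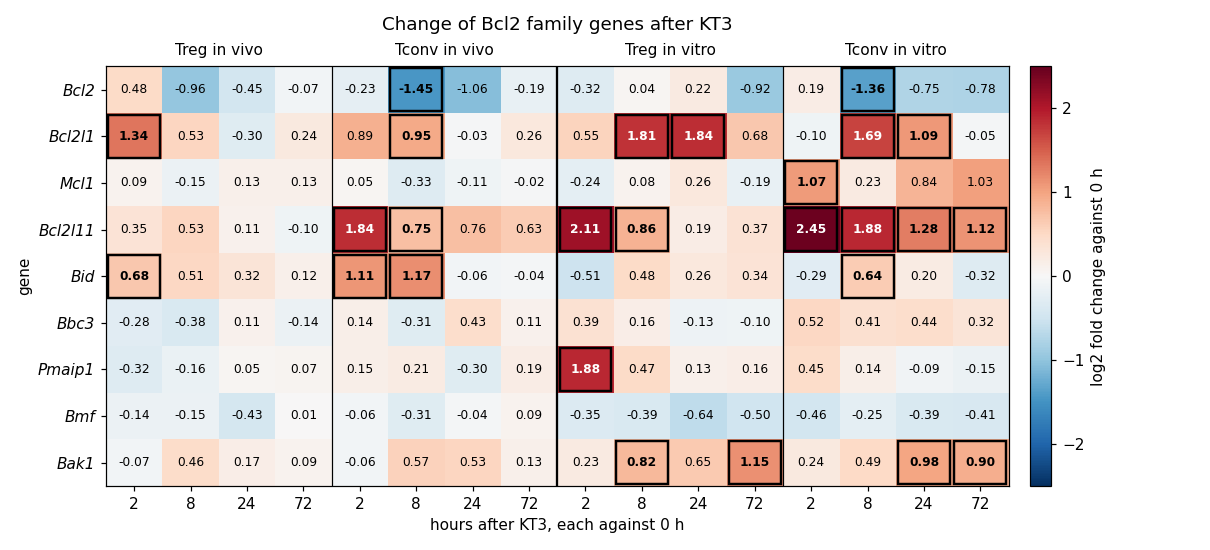
Log2 fold change of each of 9 Bcl2 family genes (rows) at 2, 8, 24 and 72 h after KT3 against 0 h (columns), for Treg and Tconv in vivo and in vitro; framed bold values were called at an adjusted p under 0.05. Framed values are nearly all rises, the largest being Bcl2l11 in Tconv in vitro at 2 h (2.45). The 2 framed falls are Bcl2 in Tconv at 8 h (-1.45 in vivo and -1.36 in vitro). Rises also outnumbered falls among all called genes, for example 1794 and 813 in Tconv in vivo at 8 h and 1950 and 400 in vitro.

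Bcl2, the founding protective member, fell in Tconv 8 h after KT3 in both settings. Injected Tconv had 9.46 and 9.59 at 0 h, 9.15 and 9.45 at 2 h, 7.94 and 8.22 at 8 h, 8.20 and 8.73 at 24 h, and 8.92 and 9.75 at 72 h. The mean was lowest at 8 h, and by 72 h the range overlapped that of 0 h. The change at 8 h was -1.45 ± 0.35 (adjusted p = 0.00387), or 0.367 of the 0 h level. It was not called without the 8 h array number 1 (-1.31), and on number 2 alone it was -1.37 (adjusted p = 0.221). Treg in vivo followed a like course with 9.63 and 9.24, 10.11 and 9.72, 8.68 and 8.27, 9.14 and 8.82, and 9.37 and 9.35 at 0, 2, 8, 24 and 72 h, but its 8 h change of -0.96 was not called in the main fit. Limma called it after quantile normalization (-1.11, adjusted p = 0.0125), with the in vivo arrays fitted alone (0.0249) and with array weights (0.00939). With the replicate block it was not called.

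In culture Bcl2 separated the cell types. Treg had 8.59 and 9.52, 8.75 and 8.73, 9.00 and 9.20, 9.58 and 8.98, and 8.04 and 8.24 at 0, 2, 8, 24 and 72 h. Tconv had 7.74 and 9.27, 8.69 and 8.69, 6.95 and 7.34, 7.65 and 7.85, and 7.62 and 7.84 at the same times. The Treg change of -0.92 at 72 h was not called (adjusted p = 0.111), but it was after quantile normalization (-1.16, adjusted p = 0.00893) and with the narrow Tconv 0 h array left out of the whole fit (-0.92, adjusted p = 0.0259). It was also called without the Treg 0 h array number 1 (-1.38, adjusted p = 0.048). The Tconv arrays of 8 and 24 h lay below every Treg array of those times. In Tconv the 8 h change was -1.36 ± 0.35 (adjusted p = 0.00773), and it was not called without the 8 h array number 1 (-1.16) or the 0 h array number 2 (-0.59). Without the narrow 0 h array it was -2.12, and the changes at 24 and 72 h were -1.52 and -1.54. Those later changes were not called in the main fit, and without the 0 h array number 2 they were 0.01 and -0.01. After quantile normalization limma called both (-1.04 and -1.01, adjusted p = 0.0129 and 0.0208), but not with the replicate block. Treg exceeded Tconv by 1.95 ± 0.35 at 8 h (3.87-fold, adjusted p = 0.000345), a call that no single array removed, and by 1.53 at 24 h (adjusted p = 0.00513). The 24 h call was lost without number 1 of Treg (1.23) or of Tconv (1.42).

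Bcl2l1, which encodes the protective Bcl-xL, rose in both cell types and settings, early in mice and later in culture. Treg in vivo had 8.12 and 7.88 at 0 h, 9.47 and 9.21 at 2 h, 8.37 and 8.70 at 8 h, 7.61 and 7.79 at 24 h, and 8.17 and 8.31 at 72 h. Tconv in vivo had 7.41 and 7.16, 8.44 and 7.90, 8.31 and 8.16, 7.28 and 7.23, and 7.71 and 7.38 at these times. The peak was at 2 h in Treg, and at 24 h no array of either cell type lay above its 0 h range. The rise at 2 h in Treg was 1.34 ± 0.26 (2.53-fold, adjusted p = 0.00135) and that at 8 h in Tconv 0.95 ± 0.26 (adjusted p = 0.00976). The Treg call was lost without its 2 h array number 1 (1.21), and the Tconv call without the 8 h array number 1 (0.87) or the 0 h array number 2 (0.83). On number 2 alone the rises were 1.32 and 0.99, neither called.

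In culture Bcl2l1 peaked later. Treg in vitro had 8.12 and 7.88, 8.75 and 8.36, 10.14 and 9.50, 9.78 and 9.92, and 9.12 and 8.24 at 0, 2, 8, 24 and 72 h. Tconv in vitro had 7.51 and 7.34, 7.33 and 7.31, 9.48 and 8.76, 8.61 and 8.42, and 7.49 and 7.25. Both peaked at 8 to 24 h, and at 72 h neither Tconv array lay above its 0 h range. In Treg the rises at 8 and 24 h were 1.81 and 1.84 ± 0.26 (3.52- and 3.59-fold, adjusted p = 5.45e-05 and 7.37e-05), and in Tconv that at 8 h was 1.69 ± 0.26 (3.24-fold, adjusted p = 6.02e-05). No single array removed these 3 calls, although the Tconv one was not called with array weights (adjusted p = 0.307). The Tconv rise of 1.09 at 24 h (adjusted p = 0.00723) was not called without the 24 h array number 1 (0.99) or the 0 h array number 1 (1.18).

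Mcl1, a short-lived protective protein, was called over time in a single comparison, which the Tconv 0 h array of narrow range entered. Treg in vivo lay between 11.66 and 12.05 over the 5 times and Tconv in vivo between 11.07 and 11.58, so that no Treg array fell within the Tconv range. In vitro Treg had 11.60 and 11.89, 11.58 and 11.42, 11.82 and 11.84, 12.10 and 11.90, and 11.40 and 11.71 at 0, 2, 8, 24 and 72 h. Tconv in vitro had 9.43 and 11.35, 11.53 and 11.38, 10.21 and 11.02, 11.05 and 11.41, and 11.37 and 11.47. The array at 9.43 is the one of narrow range. The called rise at 2 h in Tconv was 1.07 ± 0.33 (adjusted p = 0.0237) and 0.11 without that array. At 8 h the uncalled 0.23 became a called fall of -0.73 (adjusted p = 0.0479) without it. The 2 h call was also lost without either 2 h array (0.99 and 1.14).

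**Figure D2:**
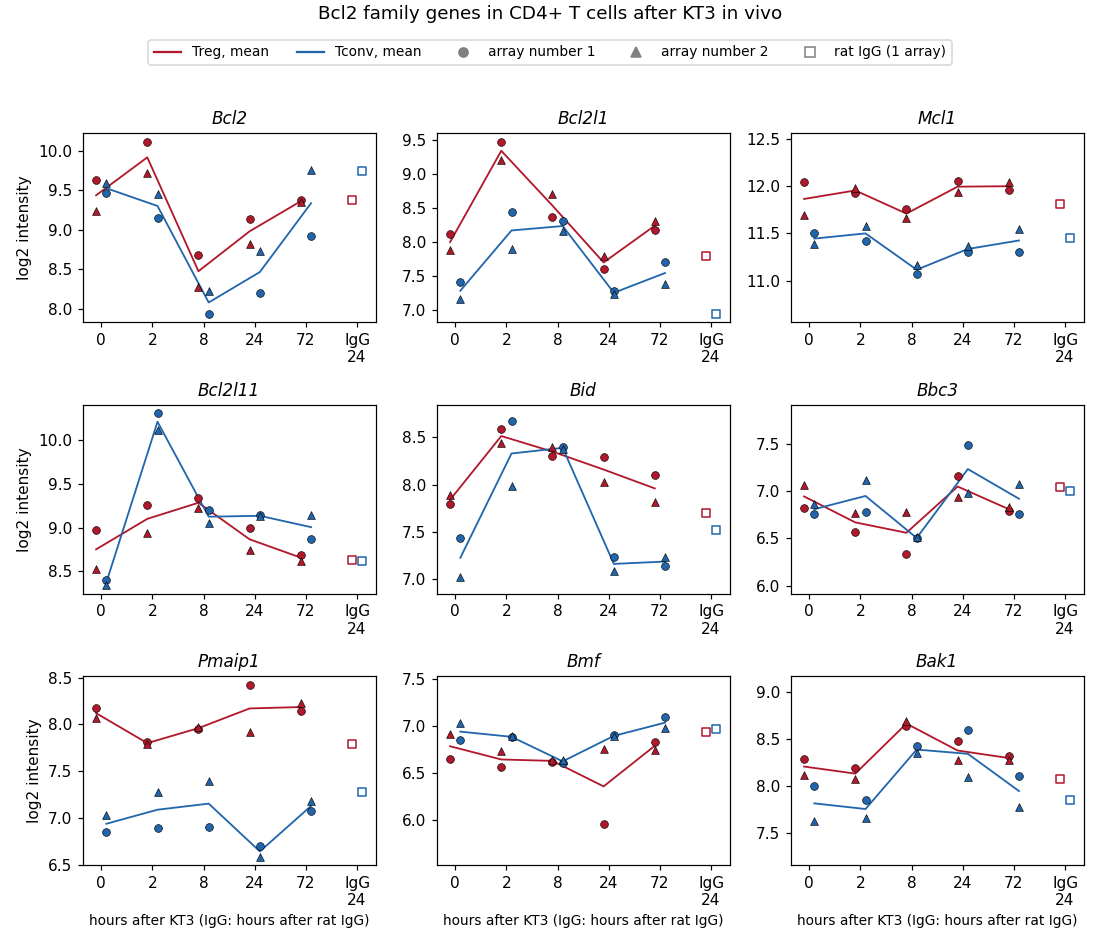
Log2 intensity of 9 Bcl2 family genes 0, 2, 8, 24 and 72 h after injection of KT3, with Treg in red and Tconv in blue; circles and triangles are the arrays numbered 1 and 2, lines join the means, open squares are the single IgG arrays, and each panel has its own scale. Bcl2l11 peaks at 2 h in Tconv (10.31 and 10.12), Bcl2l1 at 2 h in Treg (9.47 and 9.21), and Pmaip1 and Mcl1 stay higher in Treg at all times.

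Among the BH3-only genes Bcl2l11 made the largest changes. It encodes Bim, which binds all protective members. Treg in vivo had 8.97 and 8.53, 9.26 and 8.94, 9.34 and 9.23, 8.99 and 8.74, and 8.69 and 8.62 at 0, 2, 8, 24 and 72 h. Tconv in vivo had 8.40 and 8.34, 10.31 and 10.12, 9.20 and 9.05, 9.14 and 9.13, and 8.87 and 9.14. Both Tconv arrays at 2 h stood above all Treg arrays, and no Tconv array after 0 h came back to the 0 h range. In Tconv the rise was 1.84 ± 0.24 at 2 h (3.58-fold, adjusted p = 1.76e-05), a call that held without any single array. It was 1.77 on number 2 alone (adjusted p = 0.15). At 8 h it was 0.75 (adjusted p = 0.0268), which was lost when any of the 4 arrays was left out (0.68 to 0.83). In Treg the changes of 0.35 at 2 h and 0.53 at 8 h were not called.

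In culture Bcl2l11 rose in both cell types. Treg in vitro had 8.26 and 8.80, 10.76 and 10.52, 9.43 and 9.35, 8.97 and 8.46, and 8.70 and 9.10, and Tconv in vitro had 7.40 and 8.37, 10.37 and 10.30, 9.73 and 9.80, 9.28 and 9.03, and 8.90 and 9.10 at the 5 times. All 2 h arrays lay above 10, and every Tconv array after 0 h exceeded both of its 0 h arrays. The rise at 2 h was 2.11 ± 0.24 in Treg (4.32-fold, adjusted p = 1.25e-06) and 2.45 ± 0.24 in Tconv (5.48-fold, adjusted p = 7.4e-08). At 8 h it was 0.86 in Treg (adjusted p = 0.0336) and 1.88 in Tconv (adjusted p = 7.72e-06). Tconv stayed up by 1.28 at 24 h and 1.12 at 72 h (adjusted p = 0.00156 and 0.00697). Without the Tconv 0 h array number 1 these later rises were 0.79 and 0.63 and not called, and the 72 h call was also lost without its number 2 (1.02). The Treg call at 8 h was lost without its 0 h array number 1 (0.59) or either 8 h array (0.82 and 0.90), and the Tconv call at 8 h was lost with array weights (adjusted p = 0.108).

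Bid, which links death receptors to the mitochondrion once caspase-8 has cleaved it, rose early in mice. Treg in vivo had 7.79 and 7.89, 8.59 and 8.44, 8.30 and 8.40, 8.29 and 8.03, and 8.10 and 7.82 at 0, 2, 8, 24 and 72 h. Tconv in vivo had 7.43 and 7.02, 8.67 and 7.99, 8.40 and 8.38, 7.23 and 7.09, and 7.14 and 7.23. Tconv thus returned to its 0 h range by 24 h, and Treg by 72 h overlapped its own. The rise in Tconv was 1.11 ± 0.21 at 2 h (adjusted p = 0.00143) and 1.17 ± 0.21 at 8 h (2.25-fold, adjusted p = 0.000202). The 8 h call held without any single array and on number 2 alone, and was the only in vivo call to do the latter. The 2 h call was lost without the 2 h array number 1 (0.77) or the 0 h array number 2 (0.91). Treg rose by 0.68 at 2 h (adjusted p = 0.0499), just inside the threshold and lost when any of the 4 arrays was left out.

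In culture the mean of Bid was highest at 8 h in both cell types. Treg in vitro had 7.38 and 7.78, 7.09 and 7.05, 8.14 and 7.98, 7.84 and 7.84, and 8.00 and 7.84, and Tconv in vitro 7.76 and 7.24, 7.16 and 7.25, 8.24 and 8.04, 7.48 and 7.91, and 7.13 and 7.23 at the 5 times. The sole call was Tconv at 8 h, 0.64 ± 0.21 (adjusted p = 0.0317). It was lost without the 0 h array number 2 (0.38) or either 8 h array (0.54 and 0.74).

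Pmaip1, the gene of Noxa, which binds Mcl-1, differed by cell type at rest and responded in a single series. Treg in vivo had 8.17 and 8.07, 7.81 and 7.79, 7.95 and 7.97, 8.42 and 7.92, and 8.14 and 8.23 at 0, 2, 8, 24 and 72 h, against 6.85 and 7.03, 6.90 and 7.28, 6.91 and 7.40, 6.70 and 6.59, and 7.08 and 7.18 in Tconv in vivo. Treg in vitro had 7.45 and 8.65, 10.14 and 9.72, 8.80 and 8.23, 8.34 and 8.02, and 8.35 and 8.06, against 6.88 and 7.36, 7.64 and 7.51, 6.87 and 7.65, 7.21 and 6.84, and 6.90 and 7.04 in Tconv in vitro. In both settings each Treg array lay above both Tconv arrays of its time, and the Treg arrays at 2 h in culture were the highest of all. That rise was 1.88 ± 0.30 (3.69-fold, adjusted p = 0.000127) and held without any single array. Tconv in vitro changed by 0.45 at 2 h, which was not called.

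Bbc3 (Puma, a target of p53 and FOXO) and Bmf (a BH3-only protein that can be held at the cytoskeleton) were dim and were called in no comparison of the main fit. Bbc3 ranged from 6.34 to 7.53 and Bmf from 5.96 to 7.50 over the 42 arrays, with 38 and 40 arrays above the array median, itself 6.45 to 6.86. Their largest changes over time were 0.52 for Bbc3 in Tconv in vitro at 2 h and -0.64 for Bmf in Treg in vitro at 24 h. The latter was called with the replicate block (limma, adjusted p = 0.0463). Quantile normalization led to calls in Tconv in vitro, which the narrow 0 h array entered. These were Bbc3 at 2, 8 and 24 h (0.87, 0.71 and 0.76) and Bmf at 2, 24 and 72 h (-0.61, -0.53 and -0.59). The replicate block called none of these. Changes of dim genes are compressed on these arrays, so that the small values do not bound the change in RNA.

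Bak1, the measured effector, rose late in culture. Treg in vitro had 7.40 and 7.81, 7.99 and 7.69, 8.62 and 8.23, 8.43 and 8.09, and 8.88 and 8.63 at 0, 2, 8, 24 and 72 h, and Tconv in vitro 7.02 and 7.75, 7.68 and 7.58, 8.03 and 7.71, 8.56 and 8.17, and 8.47 and 8.08. The arrays at 72 h lay above both 0 h arrays in each cell type. In Treg the rise was 0.82 ± 0.24 at 8 h (adjusted p = 0.0379) and 1.15 at 72 h (adjusted p = 0.00156), and in Tconv 0.98 at 24 h (adjusted p = 0.00716) and 0.90 at 72 h (adjusted p = 0.0223). All 4 calls were lost without the 0 h array number 1 of their cell type (0.61 and 0.94 in Treg, 0.62 and 0.53 in Tconv). The Treg call at 8 h and the Tconv calls were also lost without number 1 of the later time (0.62, 0.78 and 0.70). Over the in vivo times Treg ranged from 8.07 to 8.69 and Tconv from 7.63 to 8.59, with no call in the main fit. The Tconv change of 0.57 at 8 h was called with the in vivo arrays fitted alone (limma, adjusted p = 0.0317) and with array weights (0.0204). With the replicate block it was not called.

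**Figure D3:**
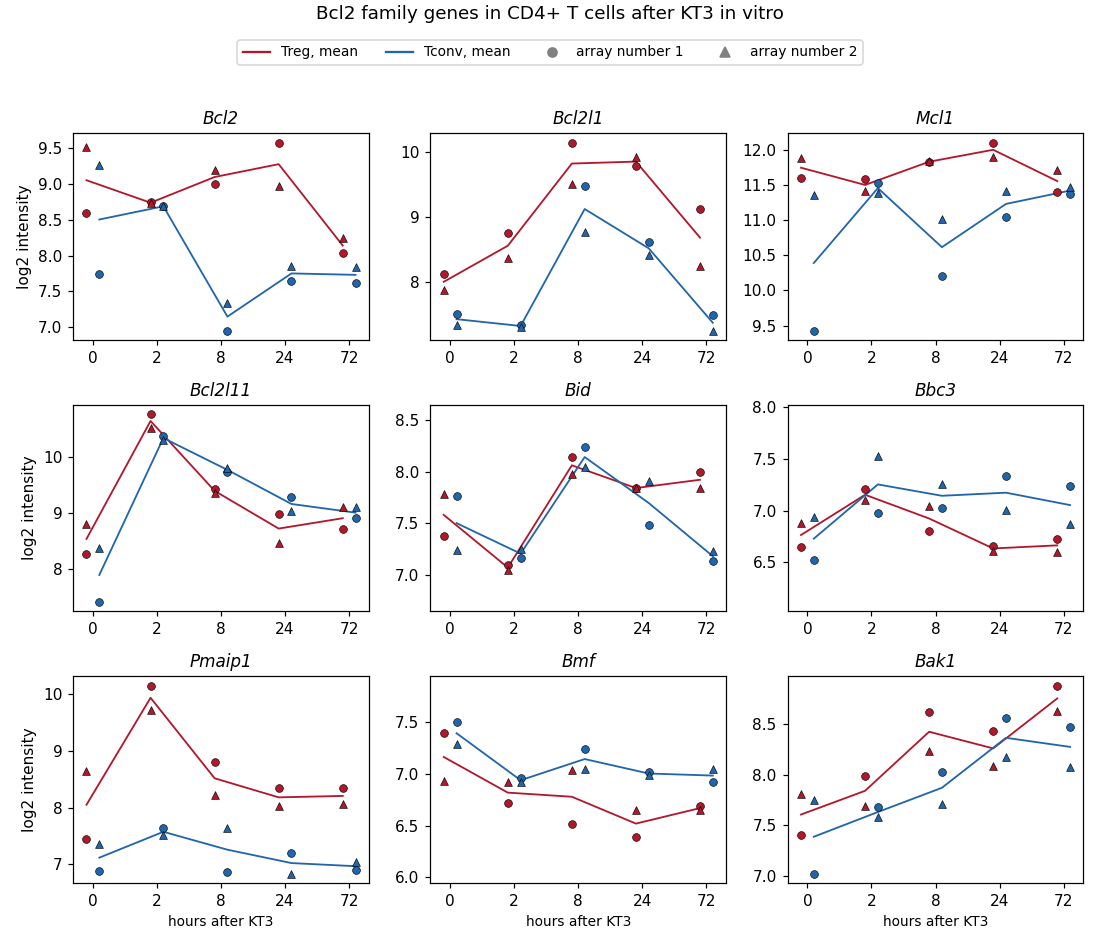
Log2 intensity of 9 Bcl2 family genes 0, 2, 8, 24 and 72 h after KT3 was added in culture, drawn as in the plot for injected KT3. Bcl2l11 is above 10 on all 2 h arrays, Pmaip1 rises to 10.14 and 9.72 at 2 h in Treg while Tconv stays at 7.64 and 7.51, and Bcl2 at 8 h is lower in Tconv; the circle at 9.43 for Mcl1 in Tconv at 0 h is the array of narrowest range.

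Between the cell types, nearly every called difference was higher in Treg, and Pmaip1 was called most often. Called genes among all genes tested leaned the same way at each time in both settings. For example, 365 were higher and 64 lower in Treg at 2 h in vivo, and 1768 and 876 at 24 h in vitro. In vivo 1, 2, 0, 2 and 2 of the 9 genes were called at 0, 2, 8, 24 and 72 h, where 3.1%, 3.45%, 4.27%, 3.2% and 3.6% of all genes were. In vitro 2, 2, 3, 3 and 3 were called, where 11.2%, 3.27%, 23.8%, 21.3% and 10.3% of all genes were. The median difference of the 9 genes, Treg minus Tconv, was 0.39 at 0 h in vivo and 0.55 at 0 h in vitro, and that of all genes 0 and 0.18. With the narrow Tconv 0 h array left out, the in vitro median of the 9 genes was 0.16 and 1.59% of all genes were called. The sole called difference in the other direction was Bcl2l11 at 2 h in vivo, -1.11 ± 0.24 (0.463 of the Tconv level, adjusted p = 0.00616). It was lost without number 1 of Tconv (-1.02) or number 2 of Treg (-0.95), and was -1.18 on number 2 alone (adjusted p = 0.608).

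Pmaip1 was higher in Treg than in Tconv in vivo, by 1.18 at 0 h, 1.52 at 24 h and 1.06 at 72 h (SE 0.30, adjusted p = 0.0229, 0.00221 and 0.0444). The in vivo differences of 0.71 at 2 h and 0.8 at 8 h were not called in the main fit. With the in vivo arrays fitted alone limma called both (adjusted p = 0.043 and 0.0201), but not with the replicate block. The in vitro differences of Pmaip1 were 0.93, 2.36, 1.25, 1.15 and 1.23 at 0, 2, 8, 24 and 72 h (adjusted p = 0.0462, 7.98e-06, 0.00431, 0.0106 and 0.00731), all called. Only the 2.36 at 2 h (5.13-fold) held without any single array. The in vivo calls at 0 and 72 h were lost when any of their 4 arrays was left out, and that at 24 h without number 1 of Treg (1.27). In vitro, the 0 h difference was 0.32 without number 2 of Treg and 0.69 without number 1 of Tconv. Those at 8, 24 and 72 h were lost without number 1 of Treg (0.97, 0.99 and 1.09), and also without Tconv number 1 at 8 h (0.87) and 72 h (1.16) and Tconv number 2 at 24 h (0.96). On number 2 alone the in vivo differences were 1.03, 1.33 and 1.05, none called.

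Treg also held more Bcl2l1. In vivo the difference was 1.17 ± 0.26 at 2 h (2.25-fold, adjusted p = 0.00804), and in vitro it was 1.23 at 2 h, 1.33 at 24 h and 1.31 at 72 h (adjusted p = 0.00465, 0.00134 and 0.00125). The in vitro difference of 0.7 at 8 h was not called in the main fit. Limma called it with the replicate block (adjusted p = 0.0179) and after median centring (0.82, adjusted p = 0.0339), but not with array weights. The 24 h call held without any single array. The in vivo call was lost without number 1 of Treg (1.03) or number 2 of Tconv (0.90) and under quantile normalization (0.96), and was 1.30 on number 2 alone. The in vitro call at 2 h was lost without number 1 of Treg (1.04) or number 2 of Tconv (1.22), and that at 72 h without number 1 of Treg (0.87).

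Bid and Mcl1 were also higher in Treg at some times. Bid was higher in Treg in vivo by 1.00 ± 0.21 at 24 h and 0.77 at 72 h (adjusted p = 0.00425 and 0.0338) and in vitro by 0.74 at 72 h (adjusted p = 0.0221). The 24 h call was lost without number 1 of Treg (0.87) or number 2 of Tconv (0.93), and the 72 h calls when any of their arrays was left out. Quantile normalization removed these 3 Bid calls (0.82, 0.67 and 0.58). Mcl1 differed in vitro by 1.36 ± 0.33 at 0 h and 1.22 at 8 h (adjusted p = 0.0144 and 0.0125), and the 0 h difference was 0.40 without the Tconv array of narrow range and lost also without number 2 of Treg (1.21). The 8 h call was lost without number 1 of Tconv (0.81) or either Treg array (1.22 and 1.21). In vivo the Mcl1 differences of 0.42 to 0.66 were called at no time in the main fit (adjusted p = 0.398 to 0.726). Both Treg arrays nevertheless exceeded both Tconv arrays at each of the 5 times. With the in vivo arrays fitted alone, limma called those at 8, 24 and 72 h (adjusted p = 0.0226, 0.015 and 0.0328). They were not called after quantile normalization or with the replicate block. In vitro the 24 h difference, uncalled in the main fit, was called with array weights (0.77, adjusted p = 0.00196), but not with the replicate block.

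Whether the courses themselves differed between the cell types was tested by limma's F-test over the 4 changes from 0 h. No member was called in vivo, where 0.346% of all genes were, or in vitro, where 3.65% were. At an unadjusted p under 0.05, Bcl2l11 (0.00231) and Bid (0.00969) passed in vivo, and Bcl2 (0.00344), Bcl2l11 (0.018), Pmaip1 (0.0202), Mcl1 (0.0287) and Bid (0.0475) in vitro. For Bcl2l11 in vivo the change at 2 h was smaller in Treg than in Tconv by 1.49 ± 0.34 (coded Treg minus Tconv, -1.49), with an adjusted p of 0.287 over the 4 times. That adjusted p was 0.0283 after quantile normalization, 0.0286 with array weights and 0.0372 with the narrow Tconv 0 h array left out of the whole fit. For Bcl2 in vitro it was 0.0748, but 0.00309 without that array and 0.0378 with the array number as a replicate block.

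The responses to injected and to cultured KT3 differed for 5 of the 9 genes in Treg, where 10.9% of all genes did, and for 2 in Tconv, where 6.37% did. In Treg, Bcl2l11 and Pmaip1 rose at 2 h in culture and were not called after injection, Bcl2l1 peaked at 2 h in injected Treg and at 8 to 24 h in culture, and Bid rose at 2 h when KT3 was injected but not in culture. In Treg the F-test over the 4 times gave adjusted p = 3.85e-05 for Bcl2l1, 0.00191 for Pmaip1, 0.00336 for Bcl2l11, 0.00907 for Bid and 0.0259 for Bcl2. In Tconv it gave 0.00268 for Bcl2l1 and 0.00436 for Bid. The settings also differed in the animals' age and in sorting, which cannot be told apart from the setting, and of the in vitro arrays only those numbered 1 came from female mice, as all in vivo arrays did. At 2 h Bcl2l11 in Treg was 9.26 and 8.94 in vivo, against 10.76 and 10.52 in vitro, where the female array comes first. Pmaip1 was 7.81 and 7.79, against 10.14 and 9.72. Whether sex bears on these differences was not tested.

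**Figure D4:**
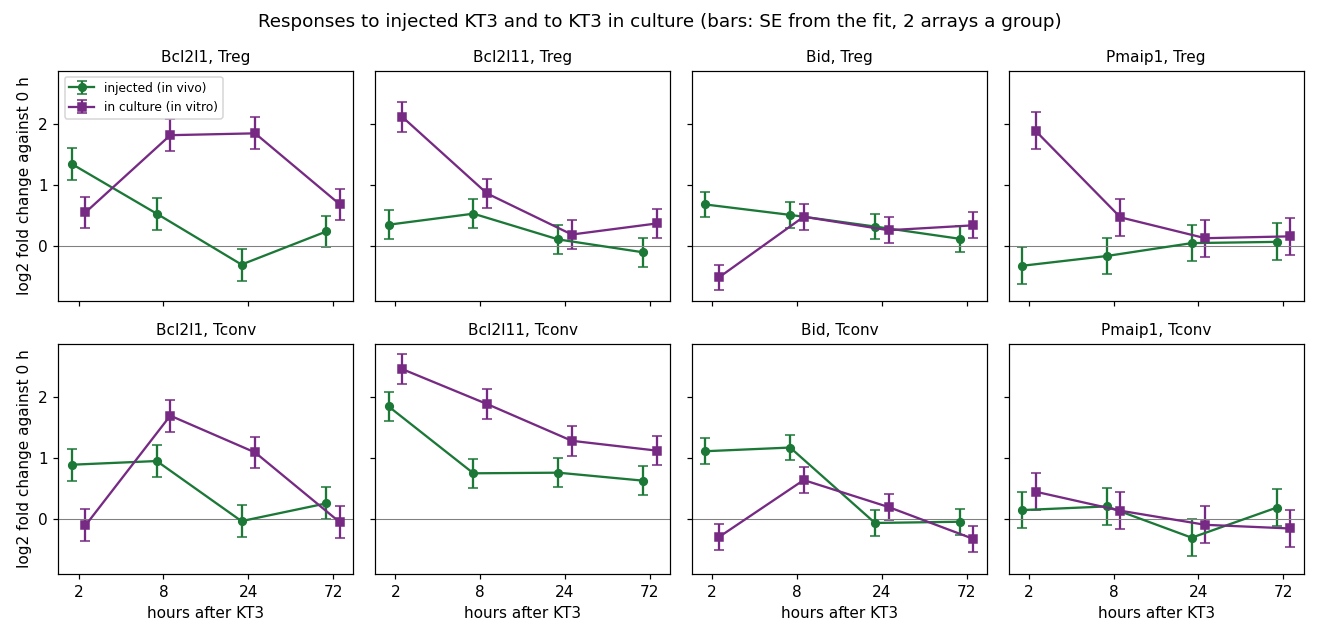
Log2 fold change against 0 h at 2, 8, 24 and 72 h after injected KT3 (green circles) and KT3 in culture (purple squares) for 4 genes, Treg above and Tconv below; bars are the standard error of the limma fit (n = 2 arrays per group). In Treg the curves part at 2 h for Bcl2l11 (0.35 in vivo and 2.11 in vitro) and Pmaip1 (-0.32 and 1.88), and at 24 h for Bcl2l1 (-0.30 and 1.84).

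Tested at each time by itself, the change in vivo minus that in vitro in Treg was -1.76 ± 0.34 for Bcl2l11 (adjusted p = 0.00265), -2.20 ± 0.42 for Pmaip1 (0.00233) and 1.19 ± 0.29 for Bid (0.0198) at 2 h, where 3.68% of all genes were called. For Bcl2l1 in Treg it was -2.15 ± 0.37 at 24 h (adjusted p = 0.0149), where 0.0966% of all genes were called. In Tconv Bid differed by 1.40 ± 0.29 at 2 h (adjusted p = 0.007), where 5.04% were called. The Bcl2l11 change at 2 h in Tconv differed by -0.61 ± 0.34 and was not called (adjusted p = 0.258). With in vivo number 2 alone none of the F-tests called a member, and the lowest adjusted p was 0.0666, for Bcl2l1 in Treg.

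Rat IgG served as the control for injection. At 24 h Bcl2 had 9.14 and 8.82 in Treg after KT3, against 9.37 after IgG, and 8.20 and 8.73 in Tconv after KT3, against 9.74 after IgG. The difference in Tconv was -1.27 ± 0.43 and was not called (adjusted p = 0.257, 1 IgG array taken to vary like other groups). No member was called for KT3 against IgG, where 0.274% of genes in Treg and 1.47% in Tconv were. Against 0 h, IgG moved no member by more than 0.34 and called none, with 0% of all genes called in Treg and 0% in Tconv by limma (198 and 19 at an unadjusted p under 0.05).

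Of the family's other protective genes only Bcl2l2 and Bcl2a1c were tested, and Bcl2a1c rose. It encodes an A1 protein, and its near-identical copies can share probes, so that the source of the signal is uncertain. At 2 h it changed by 0.90 ± 0.28 in Treg in vivo (adjusted p = 0.0544), 1.76 in Tconv in vivo (0.000225), 1.09 in Treg in vitro (0.0174) and 2.37 in Tconv in vitro (1.57e-06). Of 9 other tested BH3-only and Bcl2-like genes 0 were called at any time in Treg in vivo, 2 in Tconv in vivo, 3 in Treg in vitro and 5 in Tconv in vitro. Of all genes tested 12%, 23.1%, 17.3% and 46.1% were called at any time in these 4 series, which is the background for this list and for those that follow. Bnip3, a mitophagy receptor induced by hypoxia, rose by 1.26 ± 0.34 in Tconv in vivo at 8 h (adjusted p = 0.00801) and 1.94 in Treg in vitro at 72 h (0.00025), while its relative Bnip3l fell by 1.18 in Tconv in vivo at 8 h (0.0327).

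Downstream of the mitochondrion, 9 genes of the apoptosome and released factors were tested. Those with a called rise at any time numbered 1 in Treg in vivo, 4 in Tconv in vivo, 3 in Treg in vitro and 5 in Tconv in vitro, and 0 had a called fall. Cycs, cytochrome c, which also carries electrons in respiration, rose at 8 h by 1.47 ± 0.32 in Treg in vivo (adjusted p = 0.00349), 2.20 in Tconv in vivo (2.01e-05) and 1.80 in Tconv in vitro (0.000257). Of 5 tested inhibitors of apoptosis 1, 2, 3 and 2 rose in these series. Birc3, the ubiquitin ligase cIAP2, rose at 2 h in all 4, by 1.12 ± 0.21 and 1.13 in Treg and Tconv in vivo and by 1.70 and 2.30 in Treg and Tconv in vitro (adjusted p at most 0.00141).

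Among the 10 tested genes of the death receptor route, 2 were called in Treg in vivo, 4 in Tconv in vivo, 3 in Treg in vitro and 5 in Tconv in vitro. Fasl, the ligand of Fas, rose in Tconv at 2 h by 1.71 ± 0.29 in vivo (adjusted p = 0.00049) and 3.05 in vitro (4.44e-08). Fas rose at 2 h in vivo by 0.95 ± 0.22 in Treg and 0.99 in Tconv (0.00551 and 0.00624), and at 8 h in vitro by 1.55 and 1.73. Of 14 tested regulators of the family, 4, 6, 5 and 9 were called in Treg in vivo, Tconv in vivo, Treg in vitro and Tconv in vitro. Il7r, the receptor chain through which interleukin-7 sustains Bcl-2, fell by 4.07 ± 0.52 in Tconv in vivo at 8 h (adjusted p = 4.53e-06). Whether this fall bears on Bcl2 was not tested. Il2ra, the interleukin-2 receptor chain that marks activation, rose at 2 h in vivo by 1.59 ± 0.30 in Treg and 4.56 in Tconv (0.00107 and 3.47e-10).

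Over the 20 group means without IgG, the members did not move as 1 block. Mcl1 and Bcl2 had the highest positive Pearson correlation between members (0.65), Bcl2l1 and Bid the next (0.58), and Mcl1 and Bmf the lowest (-0.71). Bcl2l11 was near 0 against Bcl2l1 (0.18), Mcl1 (0.01) and Bid (0). The genes whose courses were most like those of the members were Dock10 for Bcl2 (0.91), Mir155 for Bcl2l1 (0.89), Cyld for Mcl1 (0.93), Per1 and Sidt2 for Bcl2l11 (0.90 each), Lrig1 for Pmaip1 (0.95) and Skap2, Ap3s2 and Plp2 for Bak1 (0.91 each). The group means share arrays, scale and the narrow Tconv 0 h array, and these values are descriptions.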

How the data were processed

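The authors deposited linear intensities, with 1 value for each array and transcript cluster. Per the series design text the RNA was amplified before hybridization to gene arrays, and the values come from RMA and Affymetrix Power Tools, per the submitters' processing notes (versions not given in the sources used). RMA subtracts background and compresses dim genes. Interquartile ranges of 1.645 to 3.208 log2 units show that scale still differed between arrays. Groups, times and array numbers came from the labels.

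Of 24922 clusters 21425 carried 1 symbol, and the cluster with the highest mean was kept per symbol. A gene was tested where 2 or more arrays exceeded their own median (12425 genes). Log2 values were fitted with limma 3.58.1 in R 4.3.3 as 22 group means over 42 arrays, with eBayes (20 residual and 5.01 prior degrees of freedom), two-sided, with Benjamini-Hochberg adjustment over all genes tested and calls under 0.05. The fit was tested on simulated data. In other pathway lists up to 3 called genes with the largest change per response were eligible to be named, and for each member the 3 genes of highest correlation. Members and lists were chosen with earlier results of these data known. Alternatives were quantile normalization, median centring, an offset of 32, no dim filter, all clusters averaged, each setting fitted alone, a replicate block, sort state, array weights and arrays left out. Added after seeing the data were the 3 arrays of narrowest range left out, in vivo number 2 alone, and each time tested by itself. Tables and plots used Python 3.11.15, pandas 2.3.3, numpy 2.4.6 and matplotlib 3.10.9. Array numbers were not taken to pair samples, since not every correlation of same-numbered deviations exceeded 0.1. They ran from -0.17 to 0.78 in vivo (median 0.3, 32 of 45 pairs of groups above 0.1) and from -0.45 to 0.71 in vitro (median 0.22, 28 of 45 above 0.1). In vitro the array number still goes with sex and age, so the main fit leaves any effect of these in its spread. The replicate block takes the number into account.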

Additional observations from a re-analysis of the deposited data

Results flagged for a closer look

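The results below stand out because the response to KT3 in mice differed from that in culture by limma's F-test over 4 times. In Treg these were Bcl2l1 (adjusted p = 3.85e-05, and 1.42e-05 to 0.000377 without single arrays), Pmaip1 (0.00191), Bcl2l11 (0.00336), Bid (0.00907) and Bcl2 (0.0259). In Tconv these were Bcl2l1 (0.00268) and Bid (0.00436). The Treg calls of Bcl2l1, Pmaip1 and Bcl2l11 and both Tconv calls held without each single array of the groups compared. The Treg call of Bid was lost without the in vivo 2 h array number 1 (adjusted p = 0.0844) or the in vitro 2 h array number 2 (0.0596), and that of Bcl2 when any of 9 of the 20 arrays was left out (up to 0.0765). No sample of a group could be examined as an outlier, since groups hold at most 2 arrays.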

How the results depend on the processing

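Of the 46 called differences 12 held whichever array of the groups compared was left out, and 34 were lost in at least 1 such fit. The array number goes with sex and age in vitro and mostly with sort state in vivo. The replicate block kept all 46 and added 6 differences and the Bcl2 F-test in vitro (adjusted p = 0.0378), with 13 calls over time for Tconv in vitro (11 without it), 7 for Tconv in vivo (6), 9 for Treg in vitro (7), 14 for Treg against Tconv in vitro (13) and 1 for the Treg against Tconv response in vitro (0). In the order Treg in vivo (2 calls), Tconv in vivo (6), Treg in vitro (7) and Tconv in vitro (11) over time, fitting each setting alone gave 4, 9, 5 and 5, array weights 4, 9, 6 and 1, leaving out the in vitro Tconv 0 h array number 1 gave 3, 10, 10 and 8, and leaving out the 3 narrowest arrays 4, 10, 6 and 7. Without that Tconv 0 h array 4.98%, 10.3%, 1.29% and 1.08% of all genes were called in Tconv in vitro at 2, 8, 24 and 72 h, against 26.3%, 18.9%, 26.8% and 7.55% with it. Quantile normalization gave 18 for Tconv in vitro, and no dim filter 1 for Treg in vivo. In vivo number 2 alone gave 0 for Treg and 1 for Tconv. For Treg against Tconv in vivo (7) quantile normalization gave 3, 1 setting alone 12, array weights 11, the 3 narrowest arrays left out 12 and number 2 alone 0. In vitro (13), 1 setting alone gave 6. For the response of Treg against that of Tconv (0 in vivo and 0 in vitro), quantile normalization, array weights, the Tconv 0 h array left out and the 3 narrowest left out each gave 1 in vivo and 2 in vitro. For in vivo against in vitro (5 in Treg, 2 in Tconv), number 2 alone gave 0 and 0, each time by itself 4 and 1, and quantile normalization 4 and 3. KT3 against IgG (0) gave 1 with array weights and 1 without the 3 narrowest arrays.

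Leaving out single arrays gave 0 to 1 calls over time for Treg in vivo, 3 to 7 for Tconv in vivo, 5 to 11 for Treg in vitro and 8 to 20 for Tconv in vitro. The ranges were 5 to 8 for Treg against Tconv in vivo, 10 to 19 in vitro, 0 to 3 for their responses in vitro, 0 to 1 for KT3 against IgG, and 3 to 5 and 2 to 5 for in vivo against in vitro in Treg and Tconv. The sole reversal was Mcl1 in Tconv in vitro at 8 h, 0.23 with all arrays and -0.73 without the 0 h array number 1 or with it left out of every fit (-0.73 to 1.19 over single arrays, the highest without the 0 h array number 2). Median centring, the offset, averaged clusters and sort state lost at most 1 of the 46 calls each. With 2 arrays a group, and dim Bbc3 and Bmf, small changes were not detectable.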
